A study of Rattus norvegicus with 8 samples.

Results

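Decorin (Dcn), lumican (Lum), the platelet-derived growth factor (PDGF) receptors Pdgfra and Pdgfrb, and the smooth muscle genes Acta2, Tagln, Myh11, Cnn1 and Des were examined as markers of fibroblasts and smooth muscle in the immature rat ovary. They were taken as every non-control probe whose gene name in the array files equalled 1 of these 9 symbols, which gave 10 probes of 30367, with 2 for Myh11 and 1 for each other gene. The arrays carry 26214 gene names in all. All 10 probes were well above background on 8 of 8 arrays, and all 9 genes entered the test, so no member was lost to the filter on dim probes.

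RNA from whole ovaries of female rats was hybridised to 1-colour (Cy3) Agilent rat expression arrays, 4 of them labelled control and the other 4 PMSG. The name stands for pregnant mare serum gonadotropin, which acts mainly like follicle-stimulating hormone and drives growth of ovarian follicles. At 26 days of age the rats had received a subcutaneous injection of 50 IU PMSG in 0.2 ml of phosphate-buffered albumin, or the same volume of that buffer with no hormone, and the ovaries were collected 48 h afterwards, at 28 days. The labels name no strain, and nothing in them beyond the replicate numbers says that the samples of a group came from separate animals, so p-values measure only the spread between these samples, which may be technical. Values are log2 processed signal minus the 75th percentile of the same array, so that 0 is the level of a probe at that percentile and a difference of 1 is a 2-fold difference.

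The 8 arrays lay on 1 slide and were read in 1 scan, their 75th percentile signal ranged from 769 to 1103, and between 80.8% and 84.6% of their probes were well above background. The number of arrays limits the precision. Granulosa and theca genes, the defining cells of ovarian follicles, were measured in 11 of 12 and 6 of 6 listed genes. Cyp11a1, which starts steroid synthesis from cholesterol, fell by 3.36 (SE 0.31, limma adjusted p 0.000232) on the arrays labelled PMSG, and Amh, the anti-Müllerian hormone of small follicles, was 3.03 (SE 0.29, limma adjusted p 0.000261) higher. Both run opposite to what is generally known of gonadotropin treatment. Every direction given here follows the sample labels, in which title, source and treatment agree, and the arrays are therefore called by their labels.

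Fibroblasts of the ovarian stroma make the collagen matrix around follicles, and decorin and lumican are small leucine-rich proteoglycans that bind collagen fibrils and regulate their assembly. PDGF receptor alpha marks fibroblasts and theca precursors, while PDGF receptor beta marks pericytes and vascular smooth muscle as well as fibroblasts; both are receptor tyrosine kinases for PDGF ligands. Smooth muscle lies in the theca externa, in blood vessels and in the ligaments of the ovary, and its contractile genes are driven by serum response factor (SRF) and its partner myocardin through CArG boxes in their promoters.

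The probe sequences of the proteoglycan pair and of Myh11 are shown because the first are members of 1 protein family measured by separate probes and the second are repeat measurements of 1 gene. Capitals mark the longest run of bases that the Dcn and Lum probes have in common, 12 bases, which was the longest among 44 pairs of probes of different member genes; the next was 9 bases, between Pdgfra and Pdgfrb.
Dcn probe: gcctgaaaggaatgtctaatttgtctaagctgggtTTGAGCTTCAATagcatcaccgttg
Lum probe: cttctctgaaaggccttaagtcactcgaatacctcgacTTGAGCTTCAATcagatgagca
Myh11 probe 1: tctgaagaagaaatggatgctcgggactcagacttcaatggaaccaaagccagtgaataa
Myh11 probe 2: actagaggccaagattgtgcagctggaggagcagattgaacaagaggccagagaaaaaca
On rn4, the rat build named in the file headers, the Lum probe lies on the plus strand at chr7:35086409-35086468. The Dcn probe is given over an interval of 3802 bases on the same strand, chr7:35037331-35041132, longer than the 60 bases of the probe. Myh11 probe 1 lies on the plus strand at chr10:775993-776052 and probe 2 before it within chr10:769544-770044. No probe named for another gene had a run of 20 bases or more in common with any of the 10 member probes. The exon and untranslated-region annotation of these positions was not used here.

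A promoter is shown for Acta2, since the contractile members are the textbook targets of SRF. The RefSeq table of promoters (build GRCr8, 250 bases before to 50 bases after the start) held 5 of the 9 members, namely Acta2, Lum, Pdgfra, Des and Cnn1, and did not list Dcn, Pdgfrb, Tagln and Myh11. A CArG box is CCNNNNNNGG with A or T at all 6 inner bases, a pattern that reads the same on both strands, and it was found in 1.64% of 33469 promoters of that length. None of the 5 windows held it. With 1 of the inner bases allowed to be G or C, 9.42% of all promoters and only Acta2 of the 5 had a match, with a box 134 bases before the start and another 84 bases before it, in capitals here (chr1:241172454-241172753, minus strand, written 5′ to 3′ along the gene).
Acta2 promoter: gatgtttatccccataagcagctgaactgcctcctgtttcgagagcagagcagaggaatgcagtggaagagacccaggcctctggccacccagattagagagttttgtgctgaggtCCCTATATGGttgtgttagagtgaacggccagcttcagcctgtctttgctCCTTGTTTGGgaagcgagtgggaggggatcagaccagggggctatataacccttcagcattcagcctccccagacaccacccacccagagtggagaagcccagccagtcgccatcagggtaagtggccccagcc
These matches are a description of the letters and not of bound sites, and the arrays measured no binding.

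Both matrix proteoglycans were higher on the arrays labelled PMSG. Dcn stood at 2.61, 2.55, 2.94 and 2.47 on control arrays 1 to 4 and at 3.11, 3.15, 3.36 and 3.77 on PMSG arrays 1 to 4. Every PMSG array was above every control array, and the highest values were on control array 3 and PMSG array 4. The means were 2.64 ± 0.20 (SD, n = 4) and 3.35 ± 0.30 (SD, n = 4), a difference of 0.70 (SE 0.17, 95% interval 0.31 to 1.1), or 1.63-fold, with an adjusted p of 0.0151 (limma, Benjamini-Hochberg over every probe tested). Lum stood at 0.93, 0.86, 1.03 and 1.03 on the control arrays and at 1.12, 1.46, 1.74 and 1.83 on the PMSG arrays. The control values lay within 0.17 of each other and the PMSG values spread over 0.71, without overlap. Lum rose by 0.58 (SE 0.16, 95% interval 0.21 to 0.95), or 1.49-fold, with a limma adjusted p of 0.0252. The call of Lum was lost when PMSG array 3 or control array 1, 2 or 4 was left out (adjusted p 0.0599, 0.0613, 0.0687 and 0.0525). RNA of whole tissue was measured, so more cells of a type and more RNA per cell cannot be told apart in these or any later values.

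The PDGF receptors differed in what they showed. Pdgfra had 1.63, 1.74, 1.67 and 1.59 on the control arrays and 2.12, 2.18, 1.93 and 2.39 on the PMSG arrays, each a mean of 9 or 10 spots. Its control arrays lay within 0.15 of each other, the tightest of the 9 genes, and all 4 PMSG arrays were above them. The difference was 0.50 (SE 0.11, 95% interval 0.24 to 0.76), or 1.41-fold, with a limma adjusted p of 0.0111. Pdgfrb had 1.25, 1.51, 1.5 and 1.48 on the control arrays and 1.52, 1.77, 1.29 and 1.35 on the PMSG arrays. The groups overlapped: PMSG array 2 was the highest and control array 1 the lowest, with the others between. The difference of Pdgfrb was 0.05 (SE 0.13, 95% interval −0.25 to 0.35; limma adjusted p 0.783).

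**Figure D1:**
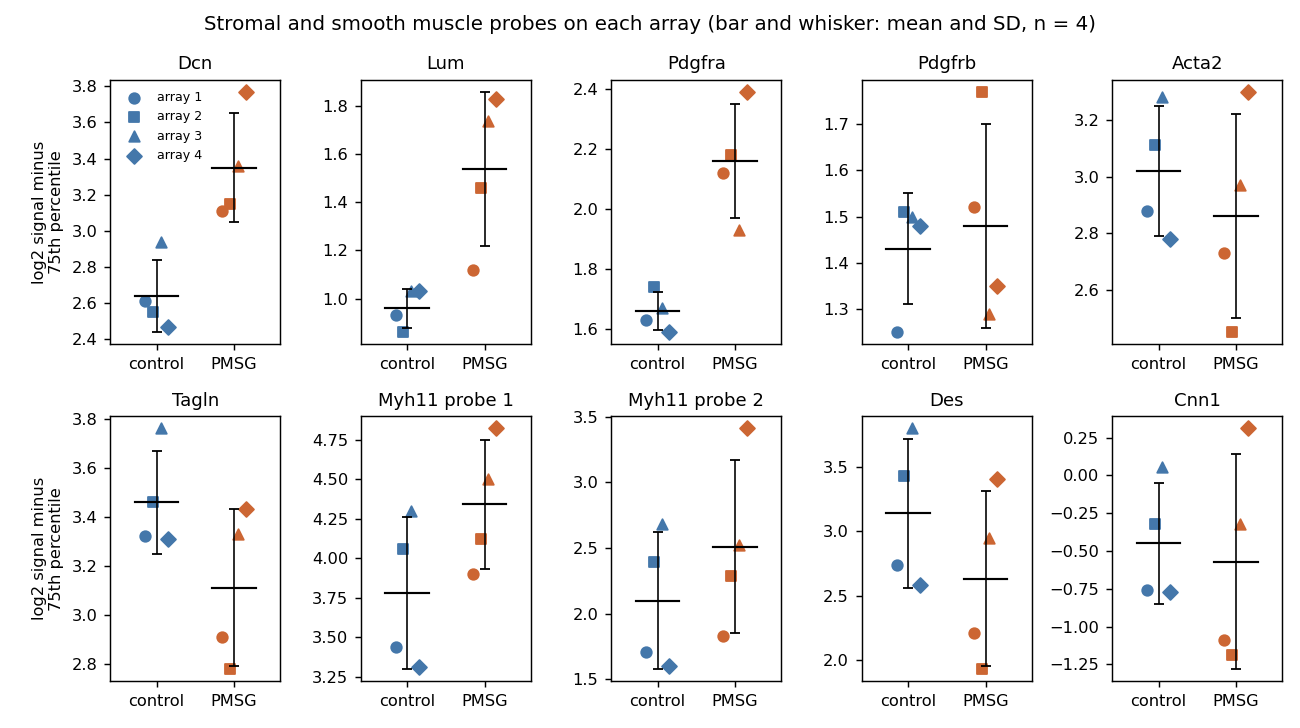
Log2 signal minus the 75th percentile of the array for each of the 10 probes on 4 arrays labelled control (blue) and 4 labelled PMSG (orange), with a separate vertical scale per panel; marker shapes are array numbers, the bar is the mean and the whisker the SD (n = 4). In the Dcn, Lum and Pdgfra panels all PMSG points lie above all control points, and in the other 7 panels the groups overlap.

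None of the 4 contractile genes or desmin passed the test, and 0 of these 5 genes had an unadjusted limma p under 0.05. Acta2, smooth muscle alpha-actin, stood at 2.88, 3.11, 3.28 and 2.78 on the control arrays and at 2.73, 2.45, 2.97 and 3.30 on the PMSG arrays. The lowest and the highest value were both on PMSG arrays, 2 and 4. The difference was −0.15 (SE 0.20, 95% interval −0.61 to 0.30; limma adjusted p 0.565). Tagln, transgelin or SM22, an actin-binding protein of smooth muscle, had 3.32, 3.46, 3.76 and 3.31 on the control arrays. On the PMSG arrays it had 2.91, 2.78, 3.33 and 3.43. PMSG arrays 1 and 2 were below all control arrays while arrays 3 and 4 lay among them, and the difference was −0.35 (SE 0.18, 95% interval −0.76 to 0.063; limma adjusted p 0.165).

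Myh11, the smooth muscle myosin heavy chain, had 3.44, 4.06, 4.30 and 3.31 on the control arrays by its brighter probe, probe 1. On the PMSG arrays that probe had 3.90, 4.12, 4.50 and 4.82. Control arrays 1 and 4 were below all PMSG arrays and control arrays 2 and 3 lay among them. The difference was 0.56 (SE 0.28, 95% interval −0.081 to 1.2; limma adjusted p 0.153). On PMSG array 4 the 2 spots of probe 1 differed, with a spot SD of 0.50. Probe 2 gave 1.71, 2.39, 2.68 and 1.6 on the control arrays and 1.83, 2.29, 2.52 and 3.41 on the PMSG arrays. It put the arrays of each label in the same order as probe 1, with a difference of 0.41 (SE 0.37, 95% interval −0.44 to 1.26; limma adjusted p 0.407). Without PMSG array 4 that difference was 0.11, and with array weights 0.14; without control array 4 it was 0.25 and without PMSG array 1 it was 0.64. Probe 1 minus probe 2 was 1.68 ± 0.049 (SD, n = 4) on the control arrays and 1.83 ± 0.30 (SD, n = 4) on the PMSG arrays, where array 4 was lowest at 1.41. That difference between labels, 0.15, was within the spread of the arrays (exact permutation test, two-sided, p = 0.343).

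Cnn1, calponin, a regulator of smooth muscle contraction, had −0.76, −0.32, 0.058 and −0.77 on the control arrays and −1.09, −1.19, −0.32 and 0.31 on the PMSG arrays. PMSG array 4 was the highest of the 8 and PMSG arrays 1 and 2 the lowest. The difference of −0.13 (SE 0.36, 95% interval −0.94 to 0.69; limma adjusted p 0.797) had no settled sign: it became 0.046 without PMSG array 1, 0.079 without PMSG array 2 and 0.041 without control array 3. Des, desmin, the intermediate filament protein of muscle, had 2.74, 3.43, 3.80 and 2.58 on the control arrays and 2.21, 1.93, 2.95 and 3.41 on the PMSG arrays. It spread over 1.22 within the control label and 1.48 within the PMSG label, more than any mean difference between labels of the 9 genes. Its difference was −0.51 (SE 0.39, 95% interval −1.40 to 0.38; limma adjusted p 0.331).

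**Figure D2:**
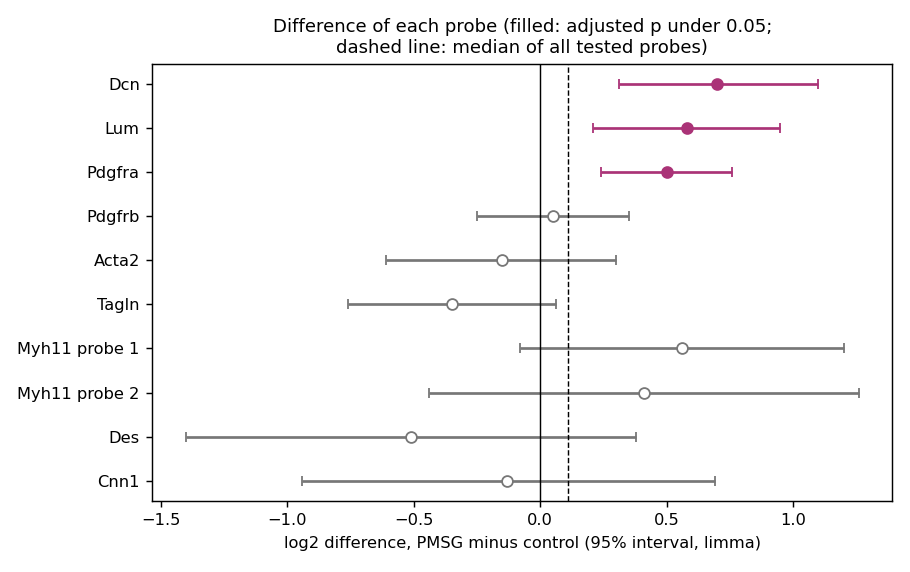
Difference of each member probe, arrays labelled PMSG minus arrays labelled control, on the log2 scale with its 95% interval from limma (n = 4 and 4); filled points had an adjusted p under 0.05 and the dashed line is the median of all tested probes. The intervals of Dcn, Lum and Pdgfra lie above 0, and those of the contractile genes and Des include 0 and are wider.

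In all, 3 of 9 members (33.3%) passed limma at an adjusted p of 0.05, and all 3 were higher on the arrays labelled PMSG. Over all probes tested, 34.2% (8658 of 25303) passed, 17.6% higher and 16.6% lower. The share of members called was thus close to that of all probes. The median difference of the members was 0.05, against 0.11 over all tested probes, whose quartiles were −0.28 and 0.48. The groups did not overlap for the same 3 members, all of them higher, against 36.6% of all probes, 17.9% higher and 18.6% lower. Relative to the median probe, Dcn was 0.59 higher, Lum 0.46, Myh11 0.45 by probe 1 and 0.30 by probe 2, and Pdgfra 0.39. Pdgfrb was at −0.064, Cnn1 at −0.24, Acta2 at −0.27, Tagln at −0.46 and Des at −0.62. Centring each array on its median in place of its 75th percentile moved the median difference of all probes from 0.11 to −0.054 and split the called probes into 2914 higher and 5534 lower, against 4452 and 4206. Under it 0 of 9 members passed limma, and 2 (Dcn and Tagln) had an unadjusted p under 0.05 (Dcn 0.54, adjusted p 0.0822; Lum 0.41, adjusted p 0.15; Pdgfra 0.33, adjusted p 0.185), and Pdgfrb changed sign to −0.12.

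Within each label, the contractile genes and Des moved together from array to array. Acta2, Tagln, Des, Cnn1 and both Myh11 probes had the same order on the control arrays, with array 4 lowest, then 1, 2 and 3. On the PMSG arrays Acta2, Tagln, Des and Cnn1 shared the order 2, 1, 3, 4 from lowest to highest, and Myh11 the order 1, 2, 3, 4. Of all tested probes, 0.537% (136 of 25303) had both the control order and the PMSG order of Acta2. All 5 of these genes were highest on control array 3 and PMSG array 4, as were Dcn and Lum, which made 7 of 9 members; 7.39% (1871 of 25303) of all tested probes were. The spread within a label, pooled over both labels, was 0.63 for Des, higher than in 90.7% of tested probes, 0.57 for Cnn1 and 0.30 for Acta2, while for Pdgfra it was 0.14, higher than in 21.6%. These orders were noticed in the data, and arrays of a label have no order of their own.

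**Figure D3:**
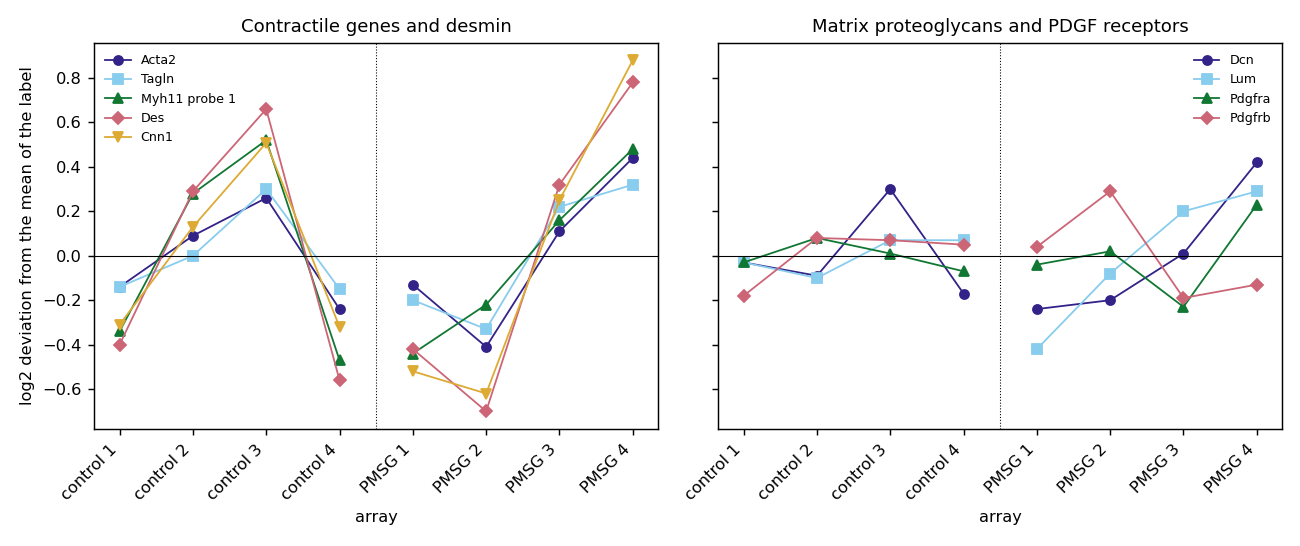
Deviation of each array from the mean of its label, in log2 units, for the contractile genes and desmin (left) and for the matrix proteoglycans and PDGF receptors (right); lines join the points of 1 gene only to help the eye, since arrays have no order. The left-hand genes all peak on control array 3 and PMSG array 4, with Des and Cnn1 spanning the widest range. On the right, Dcn and Lum peak on the same arrays, and Pdgfra and Pdgfrb do not peak on both. Over the PMSG arrays Dcn and Lum span 0.65 and 0.71, against 0.65 for Tagln.

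Markers of tissues that lie next to the ovary, and of lining epithelium, which also covers the ovary itself, were listed as well. Among these lists, only the sum of oviduct and other lining epithelium was highest on both control array 3 and PMSG array 4. Their counts stand beside 17.6% of all tested probes that were higher by limma and 16.6% that were lower. Summed signals of a list are given in multiples of the array's 75th percentile, and the brightest probes of a list weigh most in its sum. The list of oviduct and other lining epithelium had 7 of 11 genes higher on the PMSG arrays and none lower (limma), and its sum was 14.7 to 19.7 on the control arrays, highest on array 3, and 22.8 to 35.8 on the PMSG arrays, highest on array 4. Its most changed gene, Muc1, an epithelial mucin, was at least 8.03-fold higher (limma adjusted p 0.000171), with 3 of 4 control arrays above background. Striated muscle genes summed to 2.38 to 3.83 on the control arrays and 2.83 to 5.42 on the PMSG arrays, highest on array 3 of both labels. Of 11 tested genes 3 rose, led by the troponin Tnnt3 (2.00, SE 0.31, limma adjusted p 0.00172), a dim probe with a control mean of −5.2. Acta1, an actin, was the only gene of the list that fell (−1.82, SE 0.36, limma adjusted p 0.00575). Myh1 and Myh2 were below the filter. Adipocyte genes summed to 15.1 to 88.9 on the control arrays and 33.8 to 100 on the PMSG arrays, highest on array 3 of both labels, and 1 of 9 passed limma, Cidea of brown fat lipid droplets (1.85, SE 0.37). The part of these tissues in the values of the members was not tested. With control array 3 and PMSG array 4 both left out, a choice made after seeing the data, 2 of 9 members passed. That was fewer members than with every array kept, while over all tested probes more passed than before. Lum then had 0.50 with a limma adjusted p of 0.0628.

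Markers of cells inside the ovary gave further values, with counts that again stand beside 17.6% of all tested probes higher and 16.6% lower by limma. Endothelial genes had 2 of 12 higher and 5 lower, with a median of −0.44 and differences from −1.2 to 1.55. The highest was Cldn5, a tight junction protein (1.55, SE 0.39, limma adjusted p 0.0167). Their sum was 23.4 to 29.5 on the control arrays, highest on array 3, and 23.3 to 24.9 on the PMSG arrays, highest on array 4. Those were also the arrays with the highest oviduct sums. Leukocyte genes had 5 of 12 higher and none lower, and sums of 16.3 to 25.7 and 24.6 to 30. The common leukocyte antigen Ptprc was at 0.69 (SE 0.13), and its other probe, at 0.61 (SE 0.41, limma adjusted p 0.273), did not pass. Theca steroid genes had 1 of 6 higher and 3 lower with sums of 273 to 309 and 134 to 216, and granulosa genes 2 of 11 higher and 3 lower with sums of 155 to 279 and 152 to 192. Red blood cell genes had 1 of 5 tested lower, Alas2 of haem synthesis (−1.38, SE 0.22), and sums of 70.3 to 96.8 and 55.6 to 90.6. The part of these cells in the members' values was not tested either.

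The difference between 2 members on the same array sets aside the variation that they share. Myh11 minus Des, by the brighter Myh11 probe, was 0.70, 0.64, 0.50 and 0.72 on the control arrays and 1.69, 2.19, 1.56 and 1.41 on the PMSG arrays. Des alone spanned 1.22 on the control arrays, where this difference stayed between 0.50 and 0.72, and all PMSG arrays were above them. The mean difference rose from 0.64 ± 0.10 (SD, n = 4) to 1.71 ± 0.34 (SD, n = 4), by 1.07, or 2.10-fold (exact permutation test, two-sided, p = 0.0286, the smallest that 4 against 4 arrays allow). This ratio shows unequal change of the genes and not which of them changed.

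Myh11 also stood higher against the other contractile genes on all PMSG arrays. Myh11 minus Tagln rose from 0.32 ± 0.30 to 1.23 ± 0.18 (SD, n = 4 each), by 0.91. Myh11 minus Acta2 rose from 0.76 ± 0.26 to 1.48 ± 0.21, by 0.71, and Myh11 minus Cnn1 from 4.22 ± 0.13 to 4.91 ± 0.34, by 0.69, without overlap. With the dimmer Myh11 probe the differences against Acta2 and Tagln were 0.57 and 0.76 and the arrays overlapped (exact permutation p = 0.114 and 0.0857). Des minus Cnn1 fell by 0.38, from 3.58 ± 0.20 to 3.20 ± 0.10 (SD, n = 4 each), and under quantile normalization by 0.24, with overlap (exact permutation p = 0.0857).

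**Figure D4:**
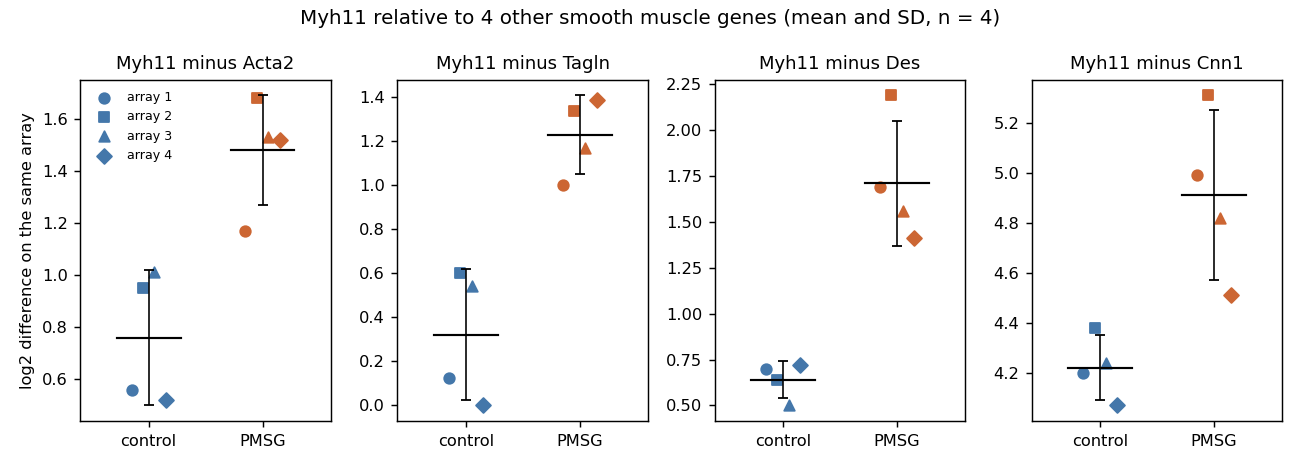
Log2 signal of Myh11 (brighter probe) minus that of Acta2, Tagln, Des and Cnn1 on the same array, for 4 arrays labelled control (blue) and 4 labelled PMSG (orange), with a separate vertical scale per panel, the mean as a bar and the SD as a whisker; marker shapes are array numbers. In each panel every PMSG array lies above every control array, with the tightest control arrays for Myh11 minus Des, at 0.50 to 0.72.

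Dcn, Lum and Pdgfra were set against the contractile genes and Des in the same way, with mixed outcomes. Dcn minus Tagln was −0.71, −0.91, −0.82 and −0.84 on the control arrays and 0.21, 0.37, 0.026 and 0.34 on the PMSG arrays. It rose by 1.05, or 2.08-fold, from −0.82 ± 0.08 to 0.24 ± 0.16 (SD, n = 4 each; exact permutation p = 0.0286). Only that change can be read, since the level of a difference between probes depends on the probes. All 6 differences of Dcn, Lum or Pdgfra against Acta2 or Tagln lacked overlap, whereas Dcn, Lum and Pdgfra against Myh11 overlapped between the labels, with changes of 0.14, 0.015 and −0.061. Against Des and Cnn1 only Dcn of these 3 lacked overlap, with changes of 1.22 and 0.83. Lum and Pdgfra against Des changed by 1.09 and 1.01 with overlap (exact permutation p = 0.0571 and 0.0857). Against Cnn1 they changed by 0.70 and 0.63, also with overlap (exact permutation p = 0.0857 and 0.229). Pdgfra minus Pdgfrb rose by 0.45, from 0.22 ± 0.12 to 0.67 ± 0.27 (SD, n = 4 each). Of all 36 pairs of members, 14 (38.9%) did not overlap, against 36.3% of all pairs of tested probes, so the share itself was near the background. All 14 had the smallest exact permutation p of 0.0286, and none of the 36 passed after Benjamini-Hochberg adjustment (smallest adjusted p 0.0735). The pairs described here were chosen after their values were seen, and those with Dcn, Lum or Pdgfra draw in part on the differences already given.

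Of 28 listed contractile and SRF-myocardin genes, 23 were on the array and tested, and 5 of these (21.7%) passed limma, 1 higher and 4 lower, against 34.2% of all probes. Their median difference was −0.057. Itga8, an integrin chain of smooth muscle and mesenchyme, fell by 2.31 (SE 0.20, limma adjusted p 0.000191), 4.96-fold, and by 2.24 on its other probe. Tagln2, a transgelin found outside smooth muscle too, fell by 1.33 (SE 0.14, adjusted p 0.000342). Vcl, vinculin, which links actin to adhesions, fell by 0.54 (SE 0.13, adjusted p 0.0166) and by 0.58 on its other probe. Csrp1 was the other gene that fell (−0.48), and Myocd, myocardin itself, was the only one that rose, by 0.94 (SE 0.21, adjusted p 0.010), 1.92-fold. Srf, its partner, was at 0.21 (SE 0.092, adjusted p 0.116). Under quantile normalization the split was 2 higher and 3 lower. On the summed scale the list stood at 195 to 252 on the control arrays and 155 to 227 on the PMSG arrays, highest on control array 3 and PMSG array 4, and 11 of its 23 genes (47.8%) were highest on both, against 7.39% of all probes.

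Mural cell genes, which mark the pericytes and smooth muscle around vessels, were listed together with the PDGF ligands. The joint list had 6 of 17 tested genes past limma (35.3%, near the 34.2% of all probes), 3 higher and 3 lower, and a median of 0.19. Pdgfd, a ligand of PDGF receptor beta, fell by 2.84 (SE 0.12, limma adjusted p 1.38e-05), 7.16-fold. With normexp background correction it fell by 1.73 (SE 0.093, adjusted p 2.1e-06). The other ligands gave 0.26 for Pdgfa, 0.18 for Pdgfb and 0.21 for Pdgfc, none of which passed. Vtn, vitronectin, rose by 1.97 (SE 0.14, adjusted p 9.03e-05), and Anpep, aminopeptidase N, by 0.74 (SE 0.17, adjusted p 0.0102). Foxs1, a forkhead factor of pericytes, fell by 1.31 (SE 0.18, adjusted p 0.000964). The split was 5 higher and 3 lower under quantile normalization, and 1 higher and 3 lower under median centring, where Anpep had 0.57 (adjusted p 0.0584). Median centring also made called probes over the whole array more often lower than higher. The sum of the list was 23.1 to 25 on the control arrays and 22 to 24.5 on the PMSG arrays.

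Of 30 listed fibroblast and small leucine-rich proteoglycan genes, 28 were tested and 13 (46.4%) passed limma, 10 higher and 3 lower, against 34.2% of all probes, 17.6% higher and 16.6% lower. The median of the list was 0.55, against 0.11 over all probes. Efemp1, fibulin-3, rose by 1.45 (SE 0.20, limma adjusted p 0.00121), Mfap5, a microfibril protein, by 1.41 (SE 0.17, adjusted p 0.000605), and Pi16, a marker of adventitial fibroblasts, by 1.14 (SE 0.16, adjusted p 0.0011) and by 0.85 on its other probe. S100a4, a calcium-binding protein of fibroblasts and leukocytes, fell by 1.23 (SE 0.16, adjusted p 0.000903). Of the proteoglycans related to Dcn and Lum, Bgn (0.30), Omd (0.71) and Kera (0.83) rose. Kera was well above background on 5 of 8 arrays and close to the threshold (limma adjusted p 0.049). The proteoglycans Fmod (0.23), Prelp (0.14), Ogn (−0.079), Aspn (0.37) and Epyc (0.73) did not pass. The large proteoglycan versican, Vcan, and tenascin, Tnc, fell by 0.91 and 0.84. Under median centring the list had 5 higher and 3 lower, and its share past limma was then below that of all probes. Called probes over the whole array were more often lower than higher in that setting. Its sum was 181 to 194 on the control arrays and 197 to 232 on the PMSG arrays, without overlap. The brightest probes weigh most in that sum, namely Bgn (means 6.14 on control and 6.44 on PMSG arrays) and Sparc (5.65 and 5.57).

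**Figure D5:**
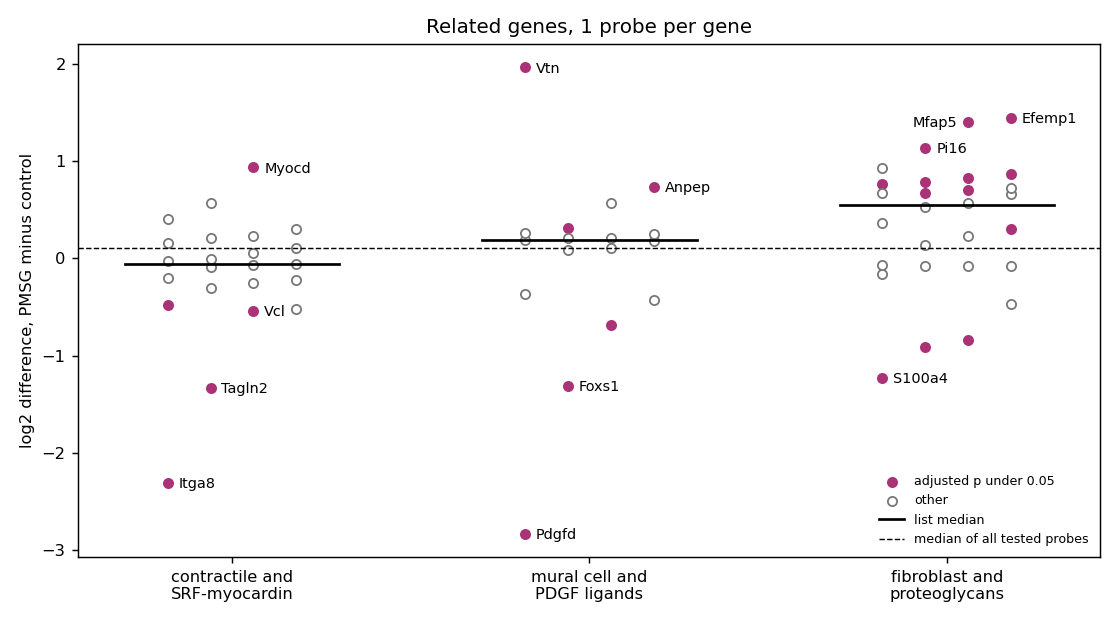
Difference of each related gene, arrays labelled PMSG minus arrays labelled control (log2, 1 probe per gene, spread sideways for legibility), in the 3 related lists; filled points had a limma adjusted p under 0.05, the solid line is the list's median and the dashed line the median of all tested probes. Pdgfd and Itga8 are the lowest points and Vtn the highest, and the medians are −0.057, 0.19 and 0.55.

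Likeness between genes was measured as the root mean square difference over the 8 arrays, each probe centred on its own mean, among probes well above background on all arrays. Acta2 and Tagln were each other's nearest members, at 0.129, with Tagln ranking 24 of 22942 probes for Acta2. Des and Cnn1 were each other's nearest, at 0.235, with Cnn1 ranking 4 for Des and Des 26 for Cnn1. Dcn and Lum were each other's nearest at 0.174 (ranks 216 and 144). Myh11 was nearest to Dcn, at 0.245 (rank 100), and not to a contractile gene. The PDGF receptors had no member of high rank: Dcn, at 0.218, ranked 2212 for Pdgfra, and Pdgfra, at 0.288, ranked 8067 for Pdgfrb. Rank and distance differ here, since 0.218 is smaller than the 0.235 between Des and Cnn1. The nearest genes overall were Wdr54 for Dcn (0.0422), Ppil6 for Lum (0.0665), Pot1 for Pdgfra (0.0366), Npl for Pdgfrb (0.0585) and Zak for Acta2 (0.0612). They were Adam15 for Tagln (0.0735), Nelf for Myh11 (0.136), Ampd3 for Des (0.166) and Mrgprf for Cnn1 (0.145). These distances are a description of 8 arrays.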

How the data were processed

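The authors read the intensity of each spot with Agilent Feature Extraction 11.5.1.1, per the file headers, which give coordinates on rn4. Their deposited value table is on a log2 scale and, set against the scanner files, equals log2 of the processed signal less the array's 75th percentile; 8 of 8 columns matched their own array. Here, log2 processed signals of non-control spots were averaged per probe without outlier spots and scaled to the array's 75th percentile. Of 30367 probes 17 had no usable spot on some array; 25303 of the rest were well above background on at least 4 arrays and were tested with limma 3.58.1 (R 4.3.3), with Benjamini-Hochberg adjustment over all of them and a threshold of 0.05. The same steps were tested on simulated data. No spot was saturated. A gene with several probes is given by its brightest probe unless both are named. Fold values are 2 to the power of the log2 difference.

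The members and lists were chosen with earlier results of these data known. Named were all member probes, the 4 genes of each related list with the largest difference among those past the threshold, the nearest gene and member of each member, and the most changed gene of each other list. Further genes (Csrp1, Srf, Acta1, the PDGF ligands, proteoglycans and tenascin) were named after their values were seen. Exact permutation tests over the 8 arrays were two-sided. Alternatives covered background correction, normalization, filters, outlier spots, the deposited values, array weights, blocks and leaving out arrays. RefSeq promoters are from GRCr8. Protein sequences and exon annotation were not used here.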

Additional observations from a re-analysis of the deposited data

Results flagged for a closer look

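Among 20 sets of 4 arrays (10 probes in each of 2 labels), 1 had an array that stood apart by Dixon's test: Pdgfrb on the control arrays, where array 1 had 1.25 and the others 1.48 to 1.51, a gap of 0.917 of the whole range. Chance alone marks about 1 in 20 such sets. Without that array the difference of Pdgfrb was −0.011.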

How the results depend on the processing

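The limits are 4 arrays per label on 1 slide, for which blocks for slide or scan date could not be run, and dependence on the scaling. Of 9 members, 3 passed, 0 under median centring and 2 to 3 with 1 array left out; 3 passed under the other alternatives run on all 8 arrays. Fibroblast genes numbered 13, and 8 under median centring (10 to 14 with 1 array left out). Contractile genes numbered 5, 8 with array weights (4 to 7 with 1 array left out); mural genes 6 (4 to 9 over all alternatives); all probes 8658 (6552 to 11382). The replicate numbers did not pair the samples (correlations of deviations 0.0444, 0.0361, 0.183 and −0.0192). With the replicate number as a block, 7346 probes, 3 members, 11 fibroblast genes, 5 mural genes and 3 contractile genes passed; Vcl had −0.54 with an adjusted p of 0.0532. Signs turned for Pdgfrb under median centring (−0.12) and without PMSG array 2 (−0.047) or control array 1 (−0.011), and for Cnn1 without PMSG array 1 (0.046), PMSG array 2 (0.079) or control array 3 (0.041); with 1 array left out they ranged from −0.047 to 0.11 and from −0.42 to 0.079. Neither gene passed the test in any alternative run. With control array 3 and PMSG array 4 both left out, chosen after seeing the data, 9742 probes, 2 of 9 members, 6 contractile, 7 mural and 14 fibroblast genes passed. The within-array differences, their alternatives also chosen after seeing the data, kept their signs. For each pair 8 of the alternatives left out 1 array, which cannot bring overlap to groups that had none. Their exact permutation p could only be 0.0286 or 0.0571, so these 8 do not test the separation. Myh11 minus Des and Dcn minus Tagln kept an exact permutation p of 0.0286 under 13 of 13 and 12 of 12 alternatives. Pdgfra minus Pdgfrb kept it under 7 of 12, the other 5 being at 0.0571 with 1 array left out. Myh11 minus Tagln kept it under 12 of 13, Myh11 minus Acta2 under 10 of 13, Myh11 minus Cnn1 under 9 of 13 and Des minus Cnn1 under 7 of 12. Des minus Cnn1 was −0.24 under quantile normalization (exact permutation p = 0.0857). Over all alternatives Acta2 ranged from −0.32 to −0.015, Tagln from −0.52 to −0.20, Des from −0.77 to −0.28 and Myh11 probe 1 from 0.39 to 0.73. The cause of these changes was not tested.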
